A study of Mus musculus with 22 samples.

Results

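Wild-type mouse gastruloids grown under the condition that the labels call Chiron were compared between 96 h and 120 h. Gastruloids are aggregates of embryonic stem cells that break symmetry, elongate and form tissues of the embryo's trunk. The comparison rests on 4 of the 22 libraries of the series, 2 at each time, chosen by their labels (genotype wt, tissue Chiron gastruloids, title with the hour). Those 22 libraries also cover mES cells, endoderm cultures and gastruloids made with Activin A, and samples with the genotype Hox-/-. All 4 libraries used here carry no mutation according to the labels. The labels give no dose or timing for the gastruloid treatment. They name CHIR99021, an inhibitor of the kinase GSK-3 that activates Wnt signalling, for the mES medium (with LIF and a MEK1/2 inhibitor). The cell type is labelled as mixed, and the number of aggregates behind a library, the cell line and the clone are not given. Poly(A) RNA was sequenced with a stranded kit. Nothing in the labels says that the 2 libraries of a time came from separate cultures, so p-values measure the spread between these libraries, which may be technical. Where Activin A is compared, the libraries are the 2 wild-type Activin A gastruloid libraries at 96 h and the 2 at 120 h, also without a stated dose.

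Elongating gastruloids are used as a model of the tail bud. In the embryo, progenitors at the posterior end express T, Cdx genes and Wnt and FGF ligands, and feed cells into the presomitic mesoderm and the neural tube. Presomitic cells switch on Tbx6 and Msgn1, oscillate in Notch signalling and, as Wnt and FGF signals decline and retinoic acid rises, form somites that express Meox1, Tcf15 and Pax3. Hox genes open in sequence from paralog group 1 towards group 13 as the axis extends. These points are background and not results.

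Depth differed between the times. The 96 h libraries held 20547464 and 28819301 counts and the 120 h libraries 11930416 and 9431255, so time and depth cannot be told apart by the design, and no batch label was given. Mitochondrial genes took 0.604% to 0.882% of counts over the 4 libraries and ribosomal protein genes 7.93% to 8.71%. Replicates of a time correlated at 0.9907 or more in log2 levels across genes, and libraries of different times at 0.9476 or less. The chi-square per degree of freedom between replicates was 10.26 at 96 h and 3.634 at 120 h. Such a value on counts rises with depth, and the 96 h libraries were deeper. It therefore cannot show at which time the replicates differed more. At 96 h, replicate 1 held the higher values of somite genes. Levels below are CPM, the counts per 1000000 of the TMM-scaled library total, and differences are log2 fold changes of 120 h over 96 h from edgeR, called at a Benjamini-Hochberg adjusted p under 0.05 over all genes tested. A level of 3 counts (0.110 to 0.311 CPM, depending on the library) is treated as the floor, and a gene at or below it in both libraries of a time gets a bound in place of a fold.

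From 96 h to 120 h the expression of the posterior progenitor and presomitic programme fell, and that of somite genes, of posterior Hox genes and of several secreted and imprinted products rose. Uncx, which patterns the posterior part of each somite, rose 90.7-fold, the chemokine Cxcl12 41.2-fold and the IGF-binding protein Igfbp5 36.6-fold. Msgn1 fell 16.1-fold, Cdx1 14.3-fold and Sprr2a3, a gene of the cornified envelope with near-identical copies beside it, 113-fold. Of 17305 genes tested, 10669 (61.7%) were called, with 4930 (28.5%) higher and 5739 (33.2%) lower at 120 h. Every count of called list members below is to be read against these shares. At 2-fold or more, 3624 genes (20.9%) were called, 1534 (8.86%) of them higher and 2090 (12.1%) lower. Libraries of the 2 times did not overlap in 13754 of the genes tested (79.5%), among them 10631 of the called genes. A lack of overlap in a gene below is therefore common. The median log2 fold change over all genes tested was -0.04, the middle 50% of genes lay between -0.50 and 0.40, and 4853 calls (45.5%) were smaller than 1.5-fold. Scaling by total counts alone moved that median by 0.11 and the share of calls that were higher from 46.2% to 56.0%. The count at 2-fold or more fell to 1561 when 10 counts were asked of every library. In bulk RNA, fewer cells of a type and less RNA per cell cannot be told apart.

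**Figure D1:**
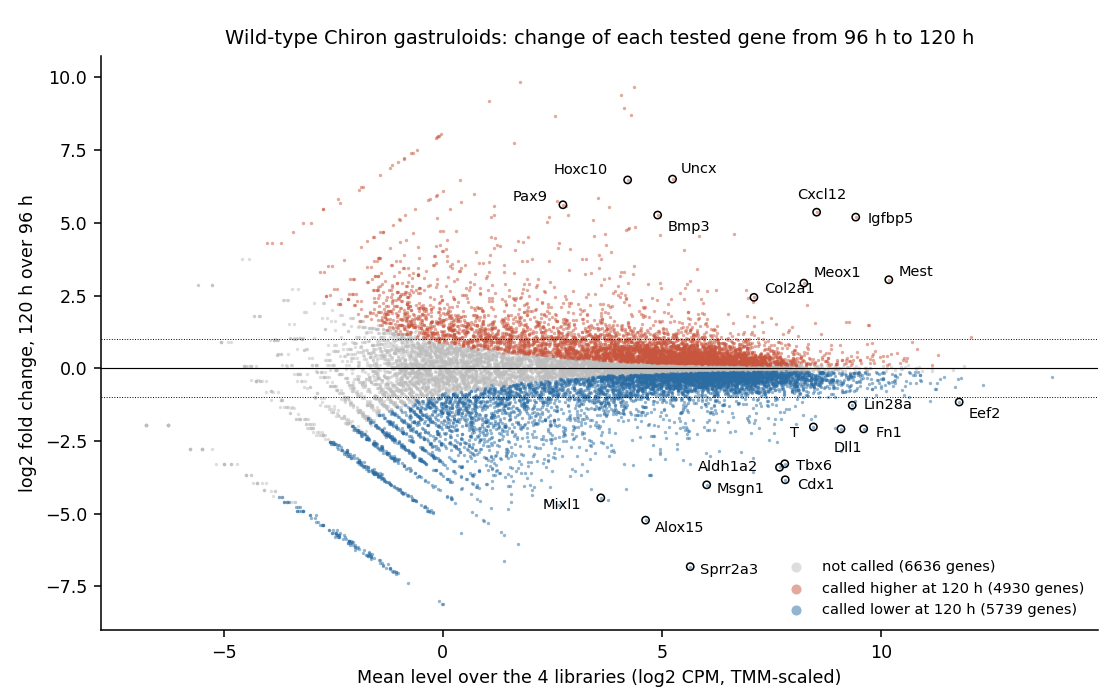
Each of the tested genes with a count in the 4 libraries is a point, by its mean level (horizontal axis, log2 CPM) and its log2 fold change of 120 h over 96 h (vertical axis). Red points were called higher (4930), blue lower (5739) and grey not called; dotted lines mark a 2-fold change, and rows of points at low level are genes with few counts, whose fitted folds are not bounds. Uncx, Cxcl12, Igfbp5 and Mest stand high on the plot, and Msgn1, Cdx1, Tbx6 and Sprr2a3 low.

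Among genes above the floor at both times with a mean of at least 10 CPM at 120 h, the 12 with the largest rises were named. Genes at the floor at 96 h were not among these 12, and some of them, such as Pax1 and Fap below, have bounds that are larger. Uncx stood at 1.19 and 0.550 CPM at 96 h and at 73.4 and 76.2 CPM at 120 h (6.50 on the log2 scale, SE 0.160, adjusted p = 7.05e-20). Cxcl12 stood at 19.6 and 15.8 CPM at 96 h and at 748 and 695 CPM at 120 h (5.37 on the log2 scale, SE 0.0716, adjusted p = 9.71e-25). For both genes the 120 h libraries agreed closely and lay far above the 96 h libraries. Meox2, a somite homeobox gene, rose from 0.517 and 0.293 to 24.1 and 21.4 CPM, Pax9, a sclerotome factor, from 0.258 and 0.257 to 11.7 and 14.5 CPM, and Foxd2 from 0.465 and 0.660 to 28.7 and 25.2 CPM. Bmp3, a ligand of the TGF-beta family, rose from 2.27 and 0.953 to 63.0 and 53.4 CPM. Vtn (vitronectin), Ltbp2 (a latent TGF-beta binding protein of the matrix) and Itih5 (an inter-alpha-trypsin inhibitor chain) rose by 5.26, 5.21 and 5.10 on the log2 scale, each from below 1 CPM. Hoxc10, Igfbp5 and Mir100hg complete those 12 and are described with their groups.

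Among the genes with the largest falls, Sprr2a3 stood at 82.9 and 115 CPM at 96 h and at 0.830 and 0.933 CPM at 120 h (-6.82 on the log2 scale, SE 0.226, adjusted p = 1.57e-17). Alox15, a lipoxygenase, stood at 42.5 and 53.8 CPM and then at 1.33 and 1.24 CPM. Both were abundant in the 96 h libraries and near 1 CPM in the 120 h libraries. Vrtn, a gene known for its effect on vertebral number, fell from 22.4 and 30.1 to 1.08 and 1.24 CPM, and Wnt8b, a Wnt ligand, from 13.1 and 11.3 to 0.332 and 0.622 CPM. Cbln1, a secreted synaptic protein, fell by 3.67 on the log2 scale and Ptprn, a protein of secretory granules, by 3.68. Ina, which encodes a neuronal intermediate filament, fell by 3.68 and Gpld1 by 4.09, but exons of Ina overlap Nt5c2 and those of Gpld1 overlap Mrs2. The strand setting of the counting is not given in the sources used here, so reads of such overlapping genes cannot be told apart.

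By CPM the largest gains were those of the ribosomal RNA gene CT010467.1, Mest, Igfbp5 (35.8 and 37.1 to 1537 and 1132 CPM) and the ribosomal protein genes Rps14 (1074 and 1262 to 2172 and 2218 CPM) and Rps18, which rose by 0.68. Both ribosomal protein genes have many pseudogene copies that can share reads. CT010467.1 varied widely within each time (4732 and 729.7 CPM at 96 h, 8092 and 3294 CPM at 120 h), its libraries overlapped between the times, and its call did not hold with DESeq2 (adjusted p = 0.347). The largest losses were of translation and chaperone genes. The elongation factor Eef1a1 stood at 17027 and 16932 CPM and then at 13883 and 13567 CPM, Eef2 at 4788 and 4946 and then at 2182 and 2169 CPM, and the chaperone Hsp90ab1 at 6007 and 6234 and then at 4070.1 and 4143 CPM. Pabpc1, the poly(A)-binding protein, fell by 1.11 on the log2 scale and the nucleolar chaperone Npm1 by 0.66.

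The labels name no cell type beyond mixed cells, so markers of several tissues were read. At 96 h T, Tbx6 and Meox1 were present at 538 and 587, 423 and 386, and 93.7 and 48.8 CPM. Among 12 genes of primitive blood, 4 were tested, and Gata1 and Hba-x had no count in any of the 4 libraries. The blood list summed to 110.5 and 122 CPM at 96 h and 19.7 and 19.7 CPM at 120 h, nearly all of it from Lmo2 (108 and 119.7, then 14.9 and 15.1 CPM). Of 10 trophoblast genes, 7 were tested, Prl3d1 and Tpbpa had no count, and the list summed to 13.5 and 12.9 CPM at 96 h and 11 and 14.2 CPM at 120 h. The 12 forebrain and midbrain genes summed to 15.8 and 14.3 CPM and then 7.47 and 8.19 CPM, and the 12 cardiac muscle genes to 15.3 and 14.9 CPM and then 15.5 and 14.8 CPM, with Nppa at 0 throughout. Of the endothelial genes 1 of 11 tested was called (Cldn5, higher, 0.310 and 0.367 to 0.830 and 0.726 CPM), and Kdr stood between 0.843 and 1.83 CPM in the 4 libraries. Extraembryonic endoderm genes summed to 381 and 407 CPM and then 483 and 457 CPM and gave 7 higher and 1 lower of 13 tested, among them Dab2 (9.20 and 14.4 to 22.2 and 25.4 CPM), while Afp stayed at or below 0.311 CPM and Ttr, a transport protein of yolk sac, reached 0.581 and 1.04 CPM. Cubn, in the same list, was called higher with libraries that overlapped (1.60 and 4.91, then 4.81 and 8.08 CPM), and the call was lost without 96 h replicate 1 (adjusted p = 0.133).

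**Figure D2:**
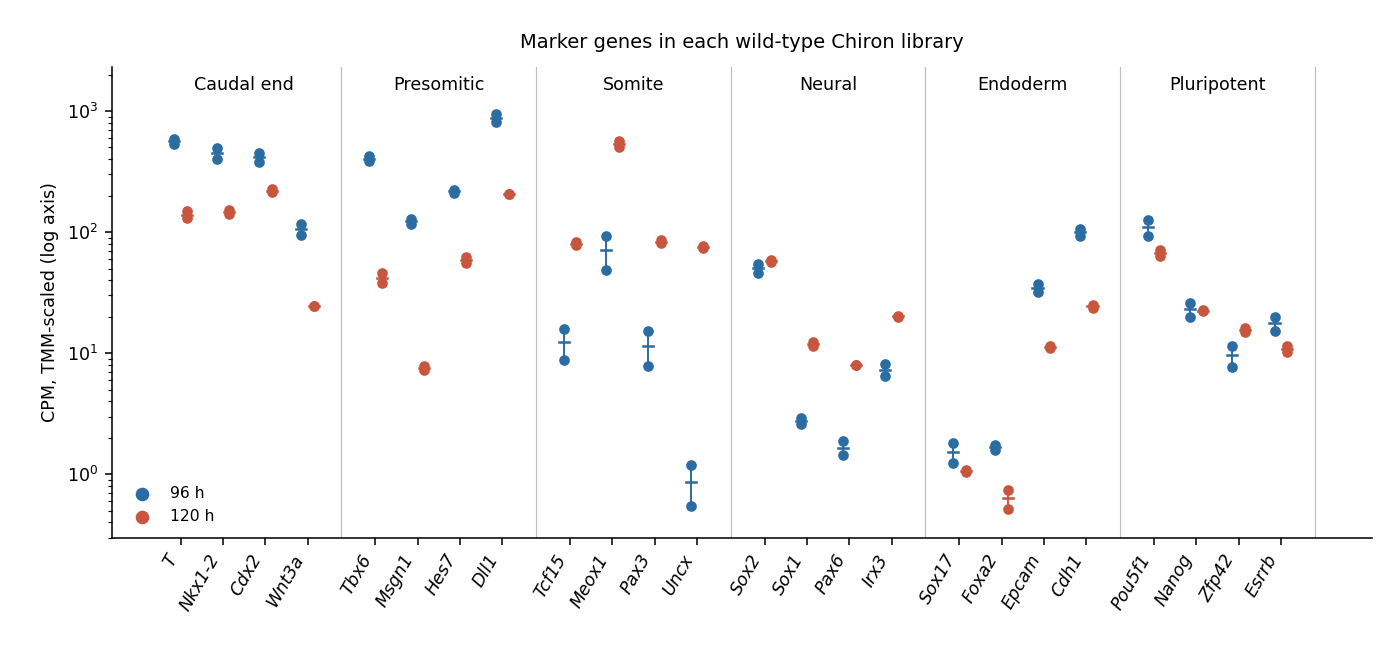
Level of 24 marker genes in each library (log axis, CPM), grouped by tissue, with 96 h in blue and 120 h in red; short bars mark the mean of the 2 libraries and vertical lines join them. The caudal and presomitic genes lie lower at 120 h, the somite genes higher, and Sox17 and Foxa2 stay below 2 CPM.

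Posterior progenitor genes fell together. Of 15 caudal genes tested, 12 were called lower and 2 higher, with a median log2 fold change of -1.62. T, the T-box factor of the streak and tail bud, stood at 538 and 587 CPM at 96 h and at 130 and 149 CPM at 120 h (-2.02 on the log2 scale, SE 0.0619, adjusted p = 4.39e-18). Cdx1, a caudal homeobox factor, stood at 391 and 449 CPM and then at 27.6 and 31.7 CPM (-3.83, SE 0.0851). Its paralogs fell less: Cdx2 from 381 and 451 to 213 and 227 CPM (-0.92) and Cdx4 from 114 and 117 to 74.3 and 86.0 CPM (-0.53). Per length, in the authors' FPKM (means of the 2 libraries), Cdx1 led at 96 h (218, against 168 for Cdx2 and 51.8 for Cdx4) and stood lowest at 120 h (15.8, against 90.8 and 36.2). Nkx1-2, a marker of neuromesodermal progenitors, fell from 403 and 494 to 141 and 151 CPM, and Evx1, whose exons overlap Evx1os, from 67.8 and 85.6 to 16.5 and 20.2 CPM. Sp5, a Wnt-driven transcription factor, fell by 3.00 on the log2 scale and Sp8 by 1.29. The 2 members that rose were Fgf17 (28.3 and 31.1 to 47.6 and 49.2 CPM) and Gdf11, a ligand of the trunk-to-tail transition (55.0 and 50.4 to 101 and 103 CPM), and Greb1 was not called (233 and 221, then 237 and 242 CPM).

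Primitive streak genes were lower as well, with 10 of 14 tested called lower, 2 higher and a median of -1.42. Mixl1 fell from 21.3 and 25.2 to 0.747 and 1.45 CPM (-4.46, SE 0.191) and Lhx1, a LIM homeobox factor, from 54.7 and 42.0 to 3.40 and 4.25 CPM (-3.66). The Nodal antagonists Lefty1 and Lefty2 fell by 2.59 and 1.62 on the log2 scale, Nodal itself by 1.38, and Mesp1 by 1.78. Eomes and Gsc were already low at 96 h (1.55 and 1.5 CPM, and 1.03 and 1.5 CPM) and were called lower. Tdgf1, the Nodal co-receptor, rose slightly (11.4 and 17.0 to 20.7 and 18.6 CPM, 0.44), and Otx2 rose from 1.24 and 2.38 to 3.32 and 2.80 CPM. Cer1 differed between the 96 h replicates (48 and 15.3 CPM) by more than between the times.

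Every one of the 12 presomitic genes tested was called lower, with a median of -2.03, against 33.2% of all genes. Tbx6, which commits cells to paraxial mesoderm, stood at 423 and 386 CPM at 96 h and at 37.8 and 45.7 CPM at 120 h (-3.29 on the log2 scale, SE 0.0746, adjusted p = 1.78e-20). Msgn1, a bHLH factor of the presomitic mesoderm, stood at 117 and 128 CPM and then at 7.88 and 7.26 CPM (-4.01, SE 0.0953, adjusted p = 4.22e-20). Neither gene overlapped between the times. The Notch ligands of the segmentation clock fell too, Dll1 from 947 and 810.4 to 206 and 208 CPM (-2.08) and Dll3 from 328 and 297 to 65.2 and 66.7 CPM (-2.24). The clock repressor Hes7 fell from 223 and 211 to 55.4 and 62.0 CPM, its modulator Lfng from 140.2 and 114 to 72.3 and 66.7 CPM, and the feedback inhibitor Nrarp from 282 and 244 to 79.3 and 80.2 CPM. Mesp2 and Ripply2, which set the boundary of the next somite, fell by 1.97 and 0.82, and both had been higher in replicate 1 of 96 h (52.8 and 28.7 CPM for Mesp2, 14.6 and 7.26 CPM for Ripply2). Fgf4 fell by 3.45 and Dkk1, a secreted Wnt inhibitor, by 3.02 on the log2 scale.

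The promoters of T and Msgn1 are shown because both genes are textbook targets of Wnt signalling and fell together with the Wnt target list described further on. Each is the 250 bases before the gene's start in RefSeq's annotation of GRCm38.p6, printed 5′ to 3′ on the gene's strand: chr17:8434173-8434422 (plus strand) for T and chr12:11208949-11209198 (minus strand) for Msgn1. Capitals mark CTTTGA or its reverse TCAAAG, the core of the TCF/LEF motif, searched on both strands.
T: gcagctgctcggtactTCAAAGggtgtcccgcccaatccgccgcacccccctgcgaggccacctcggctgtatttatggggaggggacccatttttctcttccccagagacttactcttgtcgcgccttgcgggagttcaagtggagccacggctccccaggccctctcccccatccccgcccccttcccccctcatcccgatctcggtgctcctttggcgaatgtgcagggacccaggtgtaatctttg
Msgn1: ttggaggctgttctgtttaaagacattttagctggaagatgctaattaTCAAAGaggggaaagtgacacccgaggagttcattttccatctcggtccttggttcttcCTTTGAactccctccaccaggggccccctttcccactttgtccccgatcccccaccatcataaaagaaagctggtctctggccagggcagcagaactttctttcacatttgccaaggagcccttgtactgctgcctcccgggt
The T window held 1 match and the Msgn1 window 2. Of 27025 RefSeq promoter windows of this length, 3797 (14%) held at least 1 match, so a match by itself is common and is a description of the letters only.

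Somite genes moved the other way. Of 15 tested, 12 were called higher, 2 lower, and the median log2 fold change was 2.91, against 28.5% higher over all genes. Meox1, a homeobox factor of the whole somite, stood at 93.7 and 48.8 CPM at 96 h and at 561 and 503 CPM at 120 h (2.93 on the log2 scale, SE 0.146, adjusted p = 3.23e-14). Tcf15, needed for the somite's epithelium, rose from 15.8 and 8.76 to 82.3 and 78.4 CPM, and Pax3, of dermomyotome and dorsal neural tube, from 15.3 and 7.81 to 85.7 and 81.2 CPM. In each of these 3 genes replicate 1 of 96 h was higher than replicate 2, and both lay below the 120 h libraries. Pax1, a factor of the ventral somite, from which cartilage forms, stood at 0.0517 and 0.0733 CPM at 96 h and at 36.3 and 34.1 CPM at 120 h, at least 265-fold higher, though its exons overlap AI646519. Nkx3-2 and Tbx22 were at least 16.5-fold and 14.3-fold higher, at 2.41 and 1.97 CPM and at 1.41 and 2.38 CPM at 120 h. The muscle factor Myf5 was low and fell (2.43 and 1.98 to 0.913 and 1.45 CPM). Foxc2 was not called (116 and 69.2, then 86.6 and 89.1 CPM). Aldh1a2, which makes retinoic acid in the embryo's mesoderm and is in the somite list for that reason, fell from 433 and 318 to 34.1 and 36.7 CPM (-3.41, SE 0.107).

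Hox genes changed by paralog group more than in sum. The 39 Hox genes together stood at 2073 and 2031 CPM at 96 h and at 2012 and 2143 CPM at 120 h, which overlap. Of 34 tested, 17 were called higher and 11 lower, with a median of 0.19 that became -0.09 when 10 counts were asked of every library. Groups 1 to 4 (12 genes) summed to 1242 and 1193 CPM and then to 941 and 1017 CPM, with 6 lower and 3 higher. This sum does not describe each group. Hoxb1 had the largest fall in CPM among them (mean of 327 to 96.7 CPM). The 3 that rose were in groups 3 and 4: Hoxd3 (mean of 82.9 to 132 CPM), Hoxc4 (51.7 to 87.5 CPM) and Hoxd4 (86.2 to 190.1 CPM). Groups 5 to 8 (11 genes) summed to 488 and 487 CPM and then to 556 and 583 CPM, with 6 higher and 3 lower. The 4 genes of group 9 summed to 339.8 and 347 CPM and then to 448 and 471 CPM. Groups 10 to 13 (12 genes, 7 tested) summed to 3.57 and 3.74 CPM and then to 67.3 and 72.1 CPM, with 6 higher and 1 lower. By cluster, Hoxb genes summed to 1193 and 1190.3 CPM and then to 806 and 824 CPM, while the Hoxa, Hoxc and Hoxd sums were higher at 120 h (means of 384 and 486, 208 and 345, and 269 and 432 CPM).

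Within these groups, Hoxb1 stood at 315 and 338 CPM at 96 h and at 90.7 and 103 CPM at 120 h (-1.76 on the log2 scale, SE 0.0589). Hoxc10 stood at 0.310 and 0.477 CPM and then at 37.3 and 36.4 CPM (6.47, SE 0.183, adjusted p = 3.79e-18), although its exons overlap Hoxc5, which was not called (32.2 and 32.2, then 32.2 and 37.7 CPM). Hoxb1 was lower and Hoxc10 higher in both 120 h libraries, with no overlap, as in 79.5% of all genes tested. Hoxa10 rose from 1.03 and 0.990 to 23.1 and 26.5 CPM, Hoxa9 from 20.1 and 19.9 to 118 and 142 CPM, and Hoxc9 from 6.67 and 8.36 to 38.8 and 38.5 CPM. Hoxd10 and Hoxd11 were at the floor at 96 h and at least 31.7-fold and 7.12-fold higher at 120 h. Hoxa11 rose from 0.207 and 0.0367 to 1.49 and 2.49 CPM. Hoxc11 stayed under 0.5 CPM, and its call was lost with DESeq2 (adjusted p = 0.0973) and without 96 h replicate 2 or either 120 h replicate. Hoxd13 fell from 1.40 and 1.5 to 0.581 and 0.207 CPM (adjusted p = 0.0568 with DESeq2), and Hoxc12 and Hoxd12 had no count in any of the 4 libraries.

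In the middle of the clusters changes were small or mixed. Hoxb8 (165 and 162 to 136 and 136 CPM, -0.27), Hoxb9 (268 and 261 to 235 and 229.8 CPM, -0.18) and Hoxc8 (92.3 and 93.8 to 67.6 and 72.9 CPM, -0.41) fell slightly, the second of them no longer called under total-count scaling (-0.08, adjusted p = 0.167). Hoxa7 rose from 53 and 51.0 to 108 and 113 CPM, Hoxc6 from 24.0 and 22.7 to 74.9 and 77.8 CPM, Hoxa6 from 0.258 and 0.367 to 5.73 and 7.88 CPM, and Hoxd4 from 89.4 and 83.0 to 171 and 209 CPM, with exons that Hoxd4 shares with Hoxd3. Hoxa2, Hoxa3, Hoxb4, Hoxb6, Hoxc5 and Hoxd9 were the 6 not called, though Hoxd9 and Hoxc5 were called higher under total-count scaling (0.27 and 0.22), and Hoxd9 also with libraries thinned to the smallest (0.25, adjusted p = 0.0273) and without 96 h replicate 2 (0.38, adjusted p = 9.39e-05). Per length, in the authors' FPKM (means of the 2 libraries), Hoxb1 (139.9), Hoxb9 (99.7) and Hoxb2 (79.3) led at 96 h, and Hoxb9 (88.1), Hoxd4 (82.3) and Hoxb7 (72.5) led at 120 h among the genes compared. Hoxb7 stood at only 26.8 and 24.5 CPM at 120 h, so its place rests on the length used for the FPKM. That length was not checked. Hoxa4 fell by 0.85 in the counts but is listed at 0 in the authors' FPKM table. Of the Hox cofactors, Meis1 rose (32.7 and 23.1 to 60.8 and 61.7 CPM), Pbx4 rose by 1.00 and Pbx3 fell by 0.91.

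**Figure D3:**
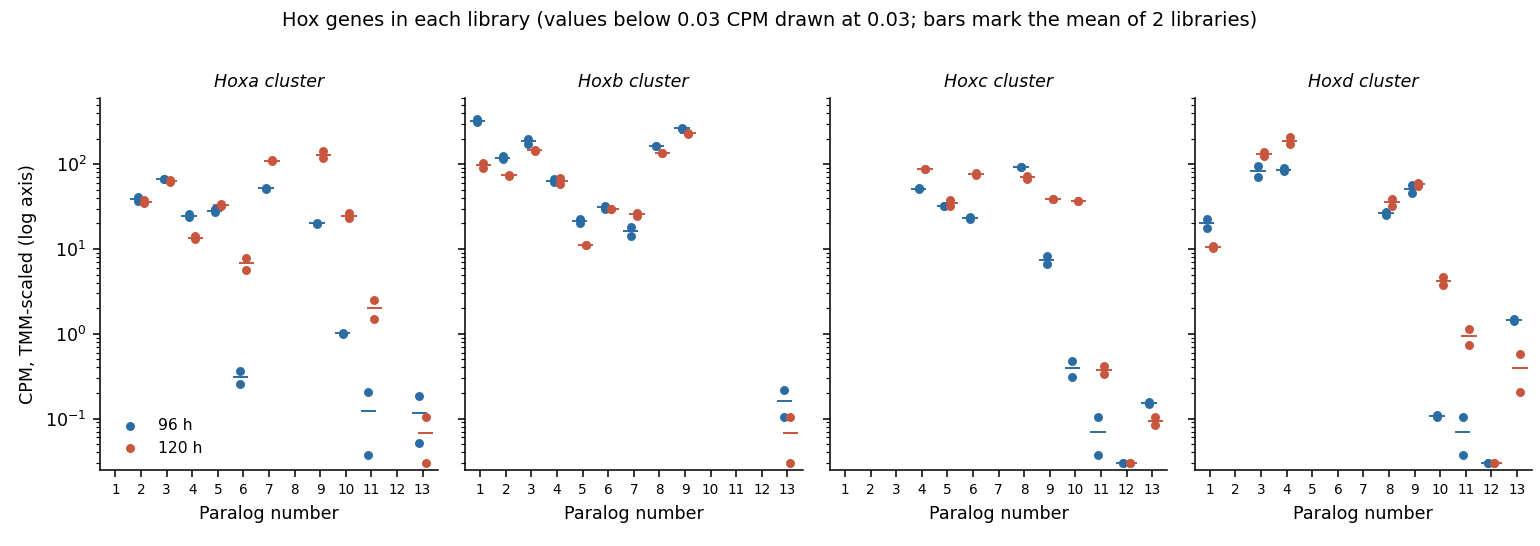
Level of the Hox genes in each library, with 1 gene not drawn, by paralog number, 1 panel per cluster (log axis, CPM; values below 0.03 CPM are drawn at 0.03), with 96 h in blue and 120 h in red and bars at the mean of 2 libraries. Hoxb1 and Hoxd1 lie lower at 120 h, the tested genes of groups 10 and 11 higher, and Hoxd13 lower.

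Most neural progenitor genes were higher at 120 h. Of 13 tested, 9 were called higher and 2 lower, with a median of 1.18. Sox1, a marker of committed neural progenitors, stood at 2.89 and 2.60 CPM at 96 h and at 11.5 and 12.4 CPM at 120 h (2.13, SE 0.175), and Pax6 at 1.45 and 1.87 CPM and then at 8.05 and 7.98 CPM (2.24, SE 0.218). Both genes were low at 96 h without overlap with 120 h. Irx3, Zic1 and Ncam1, a neural adhesion molecule, rose by 1.48, 1.60 and 1.18, and Sox2, shared by neural, progenitor and pluripotent cells, by 0.20 (45.8 and 54.7 to 57.1 and 59.3 CPM). Hes5 fell from 25.2 and 26.6 to 11.3 and 10.2 CPM and the ventral gene Nkx6-1 from 2.07 and 2.13 to 0.249 and 0.415 CPM. Olig2, of motor neuron progenitors, was not called and stayed below 0.5 CPM. Of 10 neuron genes tested, 4 were called lower and 1 higher, with Stmn2 falling from 20.6 and 22.3 to 3.15 and 4.25 CPM, and Tubb3 not called (7.65 and 8.29, then 7.30 and 6.11 CPM). Ets1, a transcription factor in the neural crest list that vessels and other mesoderm also express, rose from 12 and 10.2 to 90.3 and 86.4 CPM, while Sox10, the defining crest factor, stayed below 0.4 CPM and Sox9 fell by 1.53. Ntn1 (netrin 1), in the notochord and floor plate list, rose from 98.0 and 71.5 to 303 and 251 CPM, while Noto and Shh were near the floor.

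Intermediate and lateral mesoderm genes were low, and 7 of 15 tested were called lower and 2 higher. Wt1, of the nephrogenic and coelomic lineages, rose from 0.517 and 0.660 to 12 and 12 CPM (4.31, SE 0.225). Pax2 fell from 3.93 and 3.89 to 1.08 and 0.829 CPM and Foxf1 from 4.65 and 3.12 to 0.830 and 2.59 CPM, and Osr1 ended at the floor, at least 3.82-fold lower. Definitive endoderm genes gave 7 lower and 1 higher of 16, against 33.2% and 28.5% of all genes. The epithelial members fell, Cdh1 (E-cadherin) from 92.6 and 107 to 25.1 and 23.5 CPM, Epcam by 1.62 and Cldn6 by 1.55. Sox17 was not called (1.24 and 1.80, then 1.08 and 1.04 CPM) and Foxa2 fell from 1.60 and 1.76 to 0.747 and 0.518 CPM. Lmo2, a transcription cofactor of blood and vessels, fell from 108 and 119.7 to 14.9 and 15.1 CPM, in libraries where the globin genes were at or near 0. Fap, a membrane protease listed with fibroblast genes, stood at 0.0517 and 0.0367 CPM and then at 41.1 and 40.6 CPM, at least 308-fold higher, while Lum and S100a4 were at or below the floor and Thy1 fell by 3.62.

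Pluripotency genes did not move as a group. Of 18 tested, 4 were higher, 6 lower and 8 not called, with a median of -0.28. Over all genes 28.5% were higher and 33.2% lower. Pou5f1 stood at 93.7 and 125 CPM at 96 h and at 63.2 and 71.7 CPM at 120 h (-0.71, SE 0.0915). Nanog stood at 19.9 and 26.2 CPM and then at 22.2 and 22.7 CPM and was not called (-0.06 on the log2 scale, SE 0.112). Pou5f1 thus lay lower at 120 h without overlap, and the Nanog libraries overlapped. Dppa5a rose from 71.9 and 102 to 148 and 147 CPM and Zfp42 from 7.75 and 11.4 to 16.2 and 15.1 CPM. Esrrb and Tfcp2l1, of the naive state, fell by 0.72 and 1.22. Klf4 was called lower by 0.82, but not on the authors' FPKM (limma, adjusted p = 0.504 with a pseudocount of 1), and Esrrb was not called there with a pseudocount of 0.1 (adjusted p = 0.0861). Of the germ cell genes, Prdm1 rose from 1.29 and 1.17 to 3.65 and 4.25 CPM, Ifitm3 fell from 19.7 and 21.7 to 9.29 and 9.22 CPM, and 4 of 12 were called in each direction, shares close to the 28.5% higher and 33.2% lower of all genes.

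Most Wnt ligands and Wnt targets were lower at 120 h. Of 17 ligands and modulators tested, 10 were lower and 2 higher. Wnt3a, the main canonical ligand of the tail bud, stood at 94.8 and 116 CPM at 96 h and at 24.3 and 24.7 CPM at 120 h (-2.11, SE 0.0891), and Wnt8a at 49.7 and 58.8 CPM and then at 6.39 and 8.60 CPM (-2.88, SE 0.116). Wnt5b fell by 1.78 and Wnt5a by 0.27, the R-spondin Rspo3, which amplifies Wnt signals, by 1.83 and the antagonist Frzb by 2.11. Rspo1 and Sfrp2 rose, by 0.67 and 1.11. Among 11 genes known as Wnt targets, 8 were called lower and the other 3 were not called, with a median of -0.77. Axin2 fell from 231 and 229 to 104 and 109 CPM, Lef1 (exons overlap Lef1os1) from 454 and 386 to 109 and 113 CPM, and Tcf7 from 195 and 195 to 74.9 and 75.9 CPM. Both 96 h libraries lay above both 120 h libraries for each of these 3. Myc was not called (66.6 and 58.5, then 69.5 and 65.3 CPM).

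FGF genes followed the same direction, with 13 of 17 tested lower, 3 higher and a median of -1.23. The ligands Fgf4 (117 and 123 to 10.7 and 11.3 CPM), Fgf3 (64.2 and 76.4 to 9.21 and 11.4 CPM), Fgf15 (exons overlap Gm26793, 53.5 and 55.1 to 8.80 and 6.74 CPM) and Fgf8 (94.7 and 108 to 47.9 and 45.6 CPM) fell. The feedback targets fell with them, Dusp6 by 0.77, Dusp4 by 1.55, Etv4 by 1.51, Etv5 by 1.31 and Spry4 by 2.16. Fgf17, Fgf18 and the feedback inhibitor Spry1 rose, by 0.70, 1.05 and 1.10. In the retinoic acid pathway 7 of 12 tested were lower and 3 higher. The synthetic enzyme Aldh1a2, given above, and the degrading enzyme Cyp26a1 (116 and 121 to 27.0 and 28.1 CPM) both fell. The binding protein Crabp1 (373 and 301 to 56.7 and 59.6 CPM) also fell. Rara, a receptor, rose by 0.37 and Rarg fell by 0.46.

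Of 16 Notch pathway and clock genes, 8 were lower and 5 higher, against 33.2% and 28.5% of all genes. The ligands Dll1 and Dll3 and the clock genes given above fell, and the Hey repressors rose: Heyl from 6.56 and 5.61 to 47.5 and 42.3 CPM (2.90, SE 0.112), Hey1 from 34.8 and 29.9 to 75.1 and 69.1 CPM and Hey2 from 3.62 and 3.41 to 10.7 and 7.98 CPM. The ligand Jag1 rose from 31.0 and 24.3 to 46.6 and 50.5 CPM. In the BMP list, 4 of 16 were higher, near the 28.5% of all genes, and 3 lower. Id2 rose from 27.5 and 29.3 to 69.2 and 74.1 CPM, Id3 by 1.19 and the ligand Bmp5 by 2.11. Bmp4 was not called (3.98 and 3.96, then 2.90 and 3.42 CPM). In the Nodal list, 8 of 14 tested were lower, and Foxh1, the nuclear partner of SMAD proteins, fell from 59.0 and 61.2 to 7.22 and 6.53 CPM (-3.12, SE 0.101). In the Hedgehog list (5 of 12 tested higher, 2 lower) the co-receptors Boc (34.2 and 31.4 to 217 and 204 CPM), Cdon (23.5 and 19.8 to 106 and 96.2 CPM) and Gas1 (66.7 and 59.5 to 225 and 199 CPM) rose, as did Gli2. The target gene Ptch1 fell by 0.36 and Gli1 was not called (7.85 and 7.59, then 7.80 and 7.26 CPM). The ligand Shh was near the floor at both times.

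In the chemokine and apelin list, 3 of 6 genes were higher and 3 lower. The chemokine Cxcl12, given above, had the smallest adjusted p of the genes tested, and its receptor Cxcr4 fell from 112 and 102 to 35.5 and 36.5 CPM (-1.57, SE 0.0745). The scavenging receptor Ackr3 rose from 8.11 and 9.35 to 17.6 and 13.7 CPM. The apelin receptor Aplnr fell from 255 and 243 to 19.4 and 22.5 CPM and its ligand Apln from 29.6 and 37.8 to 6.64 and 5.70 CPM. Its other ligand Apela was called higher by 0.45, a call lost without 120 h replicate 1 (0.17, adjusted p = 0.469). Of the insulin-like growth factor system, Igfbp5 rose by 5.20, Igfbp4 and Igfbp3 fell by 1.10 and 1.02, and Igf2 was not called (93.8 and 78.8, then 85.1 and 70.6 CPM).

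Host transcripts of microRNAs were among the genes that rose. Mature sequences are given for Mir100hg, Mir17hg and Mest, and not for every host that changed. Other hosts did not rise: Igf2, which holds miR-483, and H19, which holds miR-675, were not called (-0.14 and 0.03 on the log2 scale). Mir100hg, on chromosome 9, stood at 0.207 and 0.220 CPM at 96 h and at 11 and 13.1 CPM at 120 h (5.75 on the log2 scale, SE 0.292, adjusted p = 4.64e-14). Its span, as the authors' data place the gene, holds miR-100, a let-7a hairpin and miR-125b at their positions in RefSeq's GRCm38.p6. Capitals mark the seed, bases 2 to 8.
miR-100-5p: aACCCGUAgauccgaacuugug
let-7a-5p: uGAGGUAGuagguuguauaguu
miR-125b-5p: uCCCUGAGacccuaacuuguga
These 3 share no seed. Mir17hg, the host of the miR-17 cluster on chromosome 14, rose by 1.24 (mean of 70.3 CPM at 96 h and 166 CPM at 120 h). It was named after its values were seen. 2 members of that cluster with the same seed are
miR-17-5p: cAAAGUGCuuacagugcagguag
miR-20a-5p: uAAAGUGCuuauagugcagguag
The imprinted gene Mest holds miR-335-5p, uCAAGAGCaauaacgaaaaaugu, in its span. Poly(A) libraries measure the host transcripts, so the mature forms were not measured here.

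Lin28 proteins block the processing of let-7, and the genes of that axis were mostly lower, 7 of 10 against 1 higher. Lin28a stood at 864 and 971 CPM at 96 h and at 371 and 388 CPM at 120 h (-1.27, SE 0.0534, adjusted p = 1.27e-15). Lin28b fell by 0.22, Mycn, a transcription factor of growing progenitors, from 165 and 159 to 67.2 and 71.1 CPM, and Trim71 by 0.83. The let-7 target Hmga2 was not called (617 and 524, then 530.2 and 547 CPM) and Igf2bp2 was called higher by 0.14 with libraries that overlapped. Dnmt3b, a de novo DNA methyltransferase, fell from 202 and 216 to 90.4 and 93.9 CPM and the maintenance enzyme Dnmt1 by 0.61, while Tet2 rose by 0.94.

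Imprinted genes were higher in 14 of 24 tested and lower in 5, against 28.5% and 33.2% of all genes, with a median of 0.93. Mest stood at 241 and 259 CPM at 96 h and at 2207 and 1920.0 CPM at 120 h (3.04, SE 0.0630, adjusted p = 3.66e-21), with exons that overlap Copg2. Meg3 stood at 437 and 455 CPM and then at 1153 and 1338 CPM (1.48), and Peg3 at 322 and 296 CPM and then at 953 and 892 CPM (1.58). All 3 were higher at 120 h in both libraries. Plagl1, Nnat, Cdkn1c (a cyclin-dependent kinase inhibitor) and Kcnq1ot1 rose by 2.37, 1.60, 1.79 and 1.98. Phlda2 fell from 33.1 and 35.6 to 2.16 and 1.66 CPM. H19 was not called (262 and 186, then 240.2 and 214 CPM).

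Of 22 genes of glycolysis and the hypoxia response, 15 were lower and 2 higher, with a median of -0.58. Eno1 fell from 2010.2 and 2250.4 to 1035 and 1122 CPM, Aldoa by 0.77, Pkm by 0.71, Ldha by 0.62 and the glucose transporter Slc2a3 by 0.82, while Vegfa rose from 29.6 and 26.9 to 71.2 and 79.8 CPM. Ribosome assembly genes were lower in 12 of 14, with Ncl (nucleolin) falling from 1973 and 1881 to 1005 and 1043 CPM and Ddx21 by 0.98. The 40 ribosomal protein genes had a median of 0.00, 13 higher and 17 lower, none at 2-fold or more. Replication genes were lower in 13 of 18 (median -0.23, Mcm4 by 0.76 and Pola1 by 0.85), and mitosis genes gave 7 higher, 5 lower and a median of 0.02, with Mki67 rising by 0.62. Of 11 mitochondrial transcripts tested, 6 were lower, with mt-Nd1 falling by 0.76. The calls of mt-Nd2, mt-Cytb and mt-Co1 were lost with DESeq2 (adjusted p = 0.189, 0.249 and 0.0508). Stress genes were higher in 8 of 14 tested, among them Chac1 (1.86 and 1.87 to 7.63 and 9.64 CPM), Jun (5.79 and 4.84 to 17.7 and 15.1 CPM) and the chaperone Hspa5 (556 and 564 to 833 and 832 CPM).

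Matrix and adhesion genes moved in both directions, with 13 of 24 collagen and matrix genes higher and 7 lower. Fn1 (fibronectin) stood at 1333 and 1184 CPM at 96 h and at 315 and 278 CPM at 120 h (-2.08, SE 0.0620, adjusted p = 2.58e-18), with exons that overlap Apol7d. Col2a1, the fibrillar collagen of cartilage and notochord, stood at 42.4 and 42.9 CPM and then at 220.1 and 243 CPM (2.44, SE 0.0593, adjusted p = 6.51e-20). The first was lower and the second higher in both 120 h libraries. Fbn2 (fibrillin 2) rose from 56.4 and 38.4 to 249 and 199 CPM, Col3a1 from 1.09 and 1.43 to 14.8 and 12 CPM and Sparc from 13.8 and 20.9 to 44.0 and 40.9 CPM, while Fbn1 and Lama1 fell by 0.85 and 0.75. Among cadherins, Cdh11 rose from 8.11 and 8.21 to 56.9 and 52.2 CPM, Pcdh19 fell from 345 and 246 to 56.3 and 49.6 CPM, and Cdh2 fell by 0.22. Snai1, a repressor of epithelial genes, fell from 72.8 and 72.6 to 19 and 21 CPM, and Twist1 rose from 15.1 and 9.83 to 23.2 and 24.1 CPM.

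**Figure D4:**
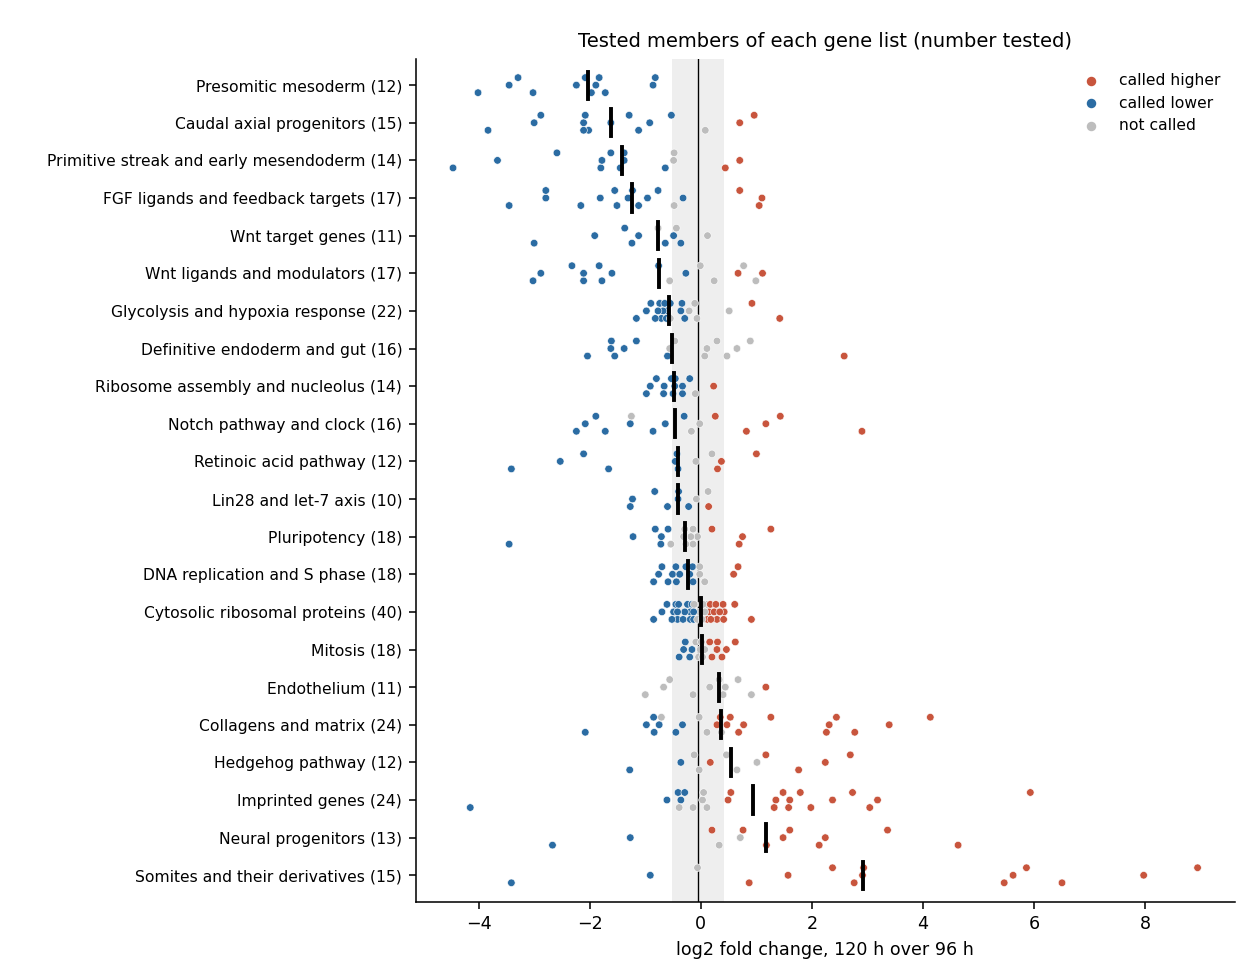
Log2 fold change of 120 h over 96 h for the tested members of 22 gene lists, ordered by median (black bar), with members called higher in red, lower in blue and not called in grey. The grey band spans the middle 50% of all genes tested. Presomitic, caudal and streak lists have the lowest medians shown and somite and neural lists the highest; ribosomal protein genes centre on 0.

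RNA classes differed in direction. Protein-coding genes had a median of -0.04 (14098 tested). Long intergenic RNAs (419 tested, 141 higher and 60 lower, median 0.33) and antisense genes (373 tested, 102 higher and 38 lower, median 0.26) lay above that, though antisense reads cannot be separated without the strand setting. Processed pseudogenes were mostly lower, 716 of 1334 tested against 124 higher, with a median of -1.45, and they share reads with their parent genes. Of the 1037 tested genes at the floor at 120 h and above it at 96 h, 517 were processed pseudogenes and 414 protein-coding, and the floor was higher at 120 h because the libraries were shallower. The part of that depth gap in these medians was not tested.

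The change over time in Chiron gastruloids was set against that in wild-type Activin A gastruloids over the same hours, through a term for the difference of the changes in the same fit of 8 libraries. No library is shared between the treatments, but a depth gap between the times may be. The lowest non-zero Hox level in Activin A was 0.0393 CPM at 96 h and 0.102 CPM at 120 h. If each was 1 count, the 120 h libraries were shallower there too. Processed pseudogenes had a negative median in both (-1.45 in Chiron and -2.31 in Activin A). The part of depth in shared signs was not tested. In Activin A, 12248 genes (70.8%) were called over time, and the difference was called for 6861 genes (39.6%), 3109 (18.0%) positive and 3752 (21.7%) negative. Of the genes called in both, 7388 had the same sign, which is 69.2% of the Chiron calls and 60.3% of the Activin A calls. Another 975 had opposite signs. The difference was called for each of those 975, which opposite calls in the same fit make nearly certain. At 2-fold or more in both directions, 25 of them were higher in Chiron and 145 lower.

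Of 34 Hox genes tested, 26 had a negative difference and 2 a positive one. Hoxc8 stood at 0.450 and 0.433 CPM at 96 h and at 37.7 and 38.9 CPM at 120 h in Activin A, where Chiron stood at 92.3 and 93.8 CPM and then at 67.6 and 72.9 CPM. The Chiron libraries were thus already high at 96 h, and the difference of the changes was -6.83 (SE 0.170, adjusted p = 3.90e-19). Hoxb9 gave the same picture, at 3.92 and 3.58 and then 79.8 and 75 CPM in Activin A (difference -4.55, SE 0.102). Hoxb1 fell in both, from 311 and 294 to 76.7 and 73.9 CPM in Activin A. Presomitic genes differed as well, with 10 of 12 negative: Dll1 rose in Activin A (46.8 and 44.6 to 96.2 and 100.3 CPM) and fell in Chiron (difference -3.19, SE 0.0923). Msgn1 fell in both (-4.04 in Activin A), and the difference was not called (0.04, SE 0.191). Aldh1a2 also had opposite signs, rising in Activin A from 54.8 and 56.6 to 122 and 109 CPM (difference -4.46).

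In the positive direction, pluripotency genes gave 9 of 18 with a positive difference and 1 negative. Tdgf1 fell in Activin A from 574 and 585 to 9.01 and 10.5 CPM and Pou5f1 from 842 and 830.2 to 21.8 and 24.9 CPM, from 96 h levels that Chiron libraries did not have. At 120 h Chiron libraries held more Pou5f1 (63.2 and 71.7 CPM) than Activin A libraries. Mest and Cxcl12 rose more in Chiron (differences 1.69 and 1.07), and Ltbp2 was called in Chiron but not in Activin A (0.315 and 0.197, then 0.307 and 0.523 CPM), with a difference of 4.51 (SE 0.794, adjusted p = 7.82e-05). Of 15 somite genes tested, 7 had a negative difference and 1 a positive one. Their median change was 4.60 in Activin A and 2.91 in Chiron, but these folds do not rank the levels at 120 h. At 120 h Uncx (11.3 and 10.7 CPM), Meox2 (4.50 and 2.41 CPM) and Pax9 (9.62 and 7.84 CPM) stood lower in Activin A than in Chiron. Aldh1a2, of the same list, stood higher in Activin A. Somite genes that rose in both include Uncx (5.40 in Activin A, difference 1.10, SE 0.586, not called) and Pax9 (6.03, difference -0.41, not called). Fn1 stood at 551 and 519 and then 595 and 586 CPM in Activin A, whereas it fell in Chiron (difference -2.23, SE 0.0853). Interferon response genes gave a positive difference in 11 of 15, with a median change of -3.57 in Activin A and -0.74 in Chiron. With bounds for the 5 members at the floor, the Chiron median was 0.00.

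**Figure D5:**
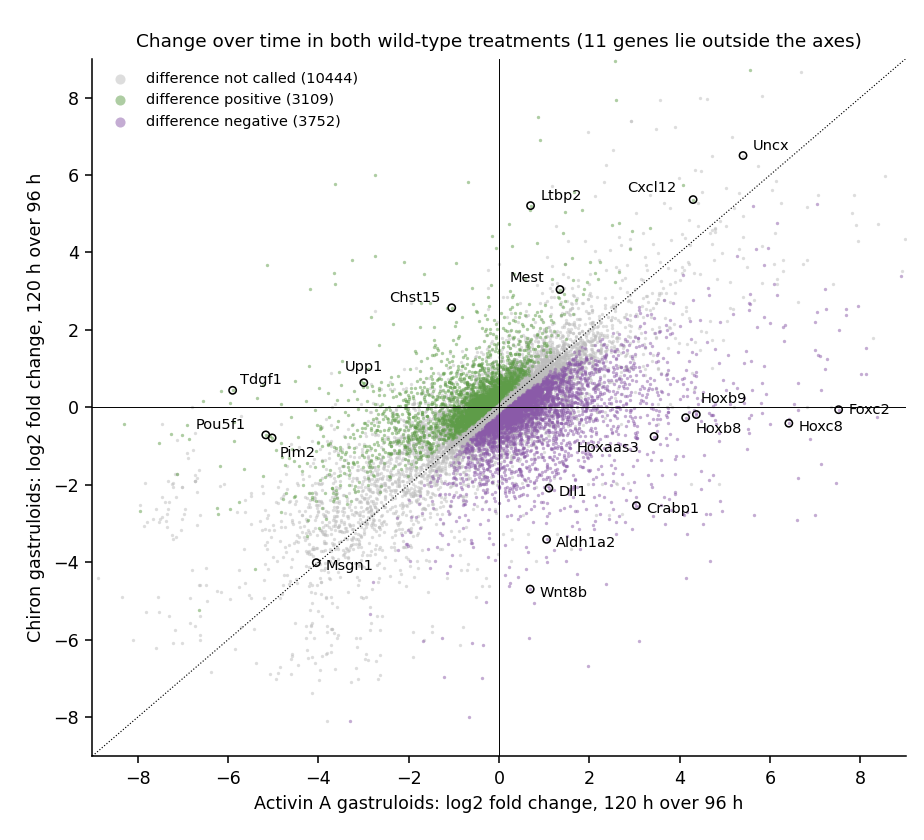
Each tested gene by its log2 fold change of 120 h over 96 h in Activin A (horizontal axis) and in Chiron gastruloids (vertical axis); green and purple mark genes with a positive or negative difference called, grey the rest, and the dotted line marks equal change. Hox genes such as Hoxc8 and Hoxb9 lie to the right near 0 on the vertical axis, Tdgf1 and Pou5f1 far to the left, and Msgn1 on the dotted line.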

How the data were processed

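RNA-seq of wild-type Chiron and Activin A gastruloids at 96 h and 120 h was used (2 libraries per group, 8 in all). The authors deposited raw read counts per gene (55141 rows). The authors also deposited FPKM values (per transcript length and depth), used for levels per length and in an alternative fit. Reads were trimmed with cutadapt 1.16 and aligned with STAR to mm10, and Cufflinks 2.2.1 was named, per the submitters' processing notes. The annotation release, the counter and its strand setting are not given in the sources used here. Gene positions, types and exon overlaps were read from the deposited table and the reference.

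Counts were fitted with edgeR 4.0.16 (R 4.3.3): filterByExpr, TMM scaling, 1 coefficient per group over the 8 libraries, quasi-likelihood F test, Benjamini-Hochberg adjustment over the 17305 genes tested and a call at 0.05. The Activin A groups enter to share the spread and to test the difference of the changes. Tests were checked on simulated counts in which only a small set of well-expressed genes changed. In these data most genes tested were called, so that check cannot speak to the scaling under such broad change or to genes with few counts. DESeq2 1.42.0, limma 3.58.1 on log2(FPKM + 1) and log2(FPKM + 0.1), other scalings, filters, thinning, a replicate block and leaving out libraries were the alternatives. Standard errors are the log2 fold change over the root of F.

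The genes named were, per direction, the 12 with the largest fold (mean of at least 10 CPM, no overlap, not at the floor of 3 counts), the 5 with the largest CPM change, the 5 with the smallest p for the difference from Activin A, every Hox gene, and up to 6 called members of each of 48 lists (mean of at least 5 CPM), with members whose absence or level is described. Members and lists were chosen with earlier results of these data known. Genes outside this rule that are given with values were chosen after their values were seen. Some genes that this rule names are not reported here.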

Additional observations from a re-analysis of the deposited data

Results flagged for a closer look

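The change over time differed between Chiron and Activin A gastruloids for 6861 genes by the term for the difference of the changes (edgeR, adjusted p under 0.05). The 5 genes with the smallest p in each direction, among those that differed by 2-fold or more at a mean of at least 10 CPM, are given here. Tdgf1 rose by 0.44 on the log2 scale in Chiron and fell by 5.90 in Activin A, a difference of 6.34 (SE 0.186, adjusted p = 7.46e-18). Upp1, uridine phosphorylase, rose in Chiron (23.3 and 27.4 to 41.7 and 37.4 CPM) and fell in Activin A (329.9 and 345 to 41.1 and 43.7 CPM), a difference of 3.63. Chst15, a sulfotransferase of chondroitin chains, rose in Chiron (4.13 and 4.40 to 26.8 and 24.0 CPM) and fell in Activin A (113 and 112 to 56.5 and 52.4 CPM), a difference of 3.62. Pou5f1 and the kinase gene Pim2 fell in both, by less in Chiron, with differences of 4.45 and 4.23. Pim2 stood at 24.4 and 30.4 and then 15.7 and 16.5 CPM in Chiron, and at 551 and 528 and then 17.1 and 16.1 CPM in Activin A.

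Crabp1 fell in Chiron and rose in Activin A (25.5 and 23.7 to 199 and 205 CPM), a difference of -5.58 (SE 0.114, adjusted p = 1.58e-20). Hoxb9, Hoxb8 and Hoxc8 fell slightly in Chiron and rose in Activin A, with differences of -4.55, -4.40 and -6.83. Hoxaas3, an antisense transcript of the Hoxa cluster with exons that overlap Hoxa3 and Hoxa7, fell in Chiron (228 and 248 to 135 and 148 CPM) and rose in Activin A (6.57 and 6.77 to 71.4 and 72.9 CPM), a difference of -4.18. Groups of 2 libraries were not screened for outlying libraries.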

How the results depend on the processing

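The number of genes called in Chiron gastruloids (10669) ranged from 7906 to 10866 over the alternatives, and the number for the difference from Activin A (6861) from 4693 to 7170. Leaving out 1 library at a time gave 8991 to 10472, 3220 to 3611 at 2-fold or more, and 5492 to 7170 for the difference; an arm left with 1 library is assumed to vary like the other groups. The 3624 genes at 2-fold or more became 1561 with at least 10 counts in every library, 1399 and 2350 with limma on log2(FPKM + 1) and log2(FPKM + 0.1), and 2276 and 1866 with protein-coding genes only and with those of at least 1 CPM (both chosen after seeing the data). With at least 10 counts, 54.6% of those were higher, against 42.3%.

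Of 284 genes followed, 278 were called, and 14 lost the call with DESeq2, 15 and 19 of the 279 that could be fitted with limma on log2(FPKM + 1) and log2(FPKM + 0.1), 4 with thinning to the smallest library and 4 to 9 when 1 library was left out. Hoxa4, not counted in those 15 and 19, also lost its call. It changed from -0.85 to 0.00 in both FPKM fits, since the authors list it at 0 FPKM. List medians that changed sign in some setting were those of Hox, cardiac muscle, primitive blood, neural crest, definitive endoderm, trophoblast, BMP, sterol and fibroblast genes. Same-numbered libraries did not deviate together (correlation -0.0029), and the fit with the replicate number as a block called 10773 genes, 3554 at 2-fold or more and 7092 for the difference, with Hoxd9 newly called (adjusted p = 0.0257). Genes near the floor at 120 h are limited by depth: 3 counts are 0.110 CPM in the deepest library and 0.311 CPM in the shallowest.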

Other observations

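The lists in this paragraph are given by their members and counts, to be read against the 28.5% higher and 33.2% lower of all genes. Of 14 p53 target genes, 7 were lower and 3 higher, with Perp falling by 1.74 on the log2 scale and Zmat3 by 0.84, and Cdkn1a, the cell cycle inhibitor that p53 activates, falling from 139.7 and 172 to 88.8 and 96 CPM. Genes of cell cycle exit gave 6 lower and 3 higher of 12, among them Btg2 (lower, 108 and 124 to 47.5 and 48.8 CPM) and Cdkn1b (higher by 0.75). Sterol and fatty acid synthesis genes gave 8 lower and 4 higher of 18, with Scd1 falling by 0.78 and Idi1 rising by 0.64. Interferon response genes gave 8 lower and 3 higher of 15, with Bst2, an antiviral membrane protein, falling from 10.5 and 13.8 to 3.73 and 3.83 CPM and Stat2 rising from 11.7 and 12.3 to 24.6 and 25.5 CPM.

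The genes in this paragraph were chosen after their values were seen, and levels are means of the 2 libraries of a time. The nuclear receptors Nr2f1 and Nr2f2 rose by 4.77 (1.35 to 35.9 CPM) and 3.42 (9.81 to 102 CPM), both with exons that overlap another gene. Transcription factors that rose include Dmrt2 (15.7 to 97.5 CPM), Eya2 (3.02 to 30.2 CPM), Ebf3 (5.40 to 30.1 CPM) and Foxd1 (2.98 to 24.7 CPM). Col26a1, a collagen, rose from 4.84 to 111 CPM and Col11a2, a cartilage collagen, from 5.70 to 30.8 CPM. Fmod, a matrix proteoglycan that binds collagen, was at the floor at 96 h and stood at 33.3 CPM at 120 h, at least 251-fold higher. Insrr, a receptor of the insulin receptor family, was at least 295-fold higher (39.0 CPM) and Dnm3os, a host of microRNAs, at least 88.8-fold (11.8 CPM). Selenop, a secreted selenoprotein, rose from 7.84 to 193 CPM, and Fgfr2, an FGF receptor, rose from 12.3 to 61.8 CPM while most FGF ligands fell. Among abundant genes that fell were Grsf1, an RNA-binding protein of mitochondria (958 to 133 CPM), Cited1 (243 to 28.2 CPM), the receptor Epha1 (216 to 46.4 CPM), Rnf213 (198 to 26.5 CPM) and Gbx2, a homeobox factor (153 to 33.6 CPM).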
